A study of Arabidopsis thaliana with 6 samples.

Results

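The ferric reductase oxidase (FRO) family of Arabidopsis thaliana was followed as 8 loci, FRO1 to FRO8, taken by locus identifier from the 33602 genes counted. Seedlings of wild-type Columbia and of athb1-1, a mutant of the homeodomain-leucine zipper gene ATHB1, were sequenced as 3 libraries each. All were grown on agar in short days of 8 h light and 16 h dark, and were aged 4 days by the labels. Stratification lasted 3 days, and the time given after stratification is 72 h. Light was 120 µmol per m² per s and temperature 22 to 24 °C. All were harvested whole (root, hypocotyl and cotyledons) 1 h before dawn, when the dark period ended. The series' design text calls the libraries biological triplicates, and athb1-1 is the single mutant allele studied. The family was selected on measured values, because the counts of FRO4 differed between genotypes in this same comparison, so the genotype values below are a description and carry no weight as a test. In a bulk sample of whole seedlings, a change in the number of cells of a type and a change in RNA per cell cannot be told apart.

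FRO proteins are membrane enzymes that pass electrons from NADPH across a membrane to ferric iron or cupric copper, so that the reduced metal can be taken up by a transporter. FRO2 is the main ferric reductase of the root surface and works with the iron transporter IRT1 under the bHLH factor FIT. FRO4 and FRO5 are known for reducing copper at the root surface under the copper response factor SPL7. FRO3 and FRO8 are placed in mitochondria, FRO7 in the chloroplast and FRO6 at the plasma membrane of shoot cells, while FRO1 is little characterised.

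Several members lie near one another on the genome, and the pairs FRO4 with FRO5 and FRO6 with FRO7 are close copies. FRO4 (AT5G23980) lies on the minus strand of chromosome 5 at 8097978 to 8101330, and FRO5 (AT5G23990) on the same strand at 8105461 to 8108642 (TAIR10.1). FRO6 (AT5G49730; chromosome 5, 20201037 to 20204595) and FRO7 (AT5G49740; chromosome 5, 20205302 to 20208777) are 706 bp apart on the minus strand. FRO2 (AT1G01580; chromosome 1, 208995 to 213082) and FRO1 (AT1G01590; chromosome 1, 214150 to 217734) are 1067 bp apart on the plus strand. FRO3 (AT1G23020; chromosome 1, 8149868 to 8153796, minus strand) and FRO8 (AT5G50160; chromosome 5, 20415764 to 20418847, plus strand) stand alone. None of the 8 overlaps another annotated gene except FRO3, which shares 24 bp with LPR1 on the opposite strand.

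The coding sequences of FRO4 and FRO5 have the same length, 2100 bases in 8 coding exons of matching size, and differ at 155 bases (92.6% identity). FRO6 and FRO7 are 93.8% identical over their aligned coding bases. The next closest pair is FRO1 with FRO3, at 85.5%, and FRO2 is 73.3% identical to FRO3. Differences between FRO4 and FRO5 are spread over all 8 exons. By number they run from 4 of 143 coding bases in exon 8 to 61 of 725 in exon 7. By share exon 2 differs most, at 11 of 97 coding bases (88.7% identity). Exon 7 took most reads of both genes. The 80-base stretch of exon 7 with the most differences is shown because bases of this kind are what lets a read be given to one gene and not the other. It runs 5′ to 3′ on the minus strand, at chr5:8098596-8098675 for FRO4 and chr5:8105998-8106077 for FRO5, with the 14 differing bases in capitals.
FRO4: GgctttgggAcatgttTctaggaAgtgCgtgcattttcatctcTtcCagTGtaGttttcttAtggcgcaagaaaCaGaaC
FRO5: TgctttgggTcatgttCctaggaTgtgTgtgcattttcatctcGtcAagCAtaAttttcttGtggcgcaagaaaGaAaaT
Elsewhere in exon 7 the genes share an identical run of 92 bases. Of all stretches of 50 bases within the exons, 94.4% of those of FRO4 and 94.2% of those of FRO5 occur once in the genome, and of stretches of 100 bases all do. For FRO6 and FRO7 the shares at 50 bases are 83.1% and 82.9%, and at 100 bases 89.7% and 89.5%. FRO1, FRO2, FRO3 and FRO8 have no repeated stretch of 50 bases. No source used here gives the read length, so the part of reads that could be placed in 2 of these genes was not tested.

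The 250 bases before the annotated starts are printed for both close pairs, because the members of each pair are set side by side in the results. The search covered GTAC, the core letters bound by SPL7, CAATNATTG, bound by HD-Zip I factors such as ATHB1, CACGTG, the G-box, and TATAAA. The first 3 read the same on both strands, TATAAA was searched on the gene's own strand, and matches to any of them are in capitals. The windows are chr5:8101331-8101580, chr5:8108643-8108892, chr5:20204596-20204845 and chr5:20208778-20209027, all minus strand, 5′ to 3′.
FRO4: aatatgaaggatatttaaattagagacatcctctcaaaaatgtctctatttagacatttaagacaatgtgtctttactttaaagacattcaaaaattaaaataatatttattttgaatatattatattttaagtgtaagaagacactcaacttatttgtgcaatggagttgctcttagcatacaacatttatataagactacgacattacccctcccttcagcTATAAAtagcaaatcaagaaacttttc
FRO5: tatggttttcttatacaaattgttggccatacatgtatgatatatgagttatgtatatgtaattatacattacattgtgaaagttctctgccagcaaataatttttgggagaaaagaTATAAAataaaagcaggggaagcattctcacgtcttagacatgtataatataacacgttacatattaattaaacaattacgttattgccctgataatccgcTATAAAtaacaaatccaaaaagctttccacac
FRO6: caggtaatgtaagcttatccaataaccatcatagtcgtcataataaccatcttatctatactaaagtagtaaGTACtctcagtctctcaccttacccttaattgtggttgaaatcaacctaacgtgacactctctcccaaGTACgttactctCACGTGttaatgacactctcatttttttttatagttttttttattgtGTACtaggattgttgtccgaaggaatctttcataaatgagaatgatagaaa
FRO7: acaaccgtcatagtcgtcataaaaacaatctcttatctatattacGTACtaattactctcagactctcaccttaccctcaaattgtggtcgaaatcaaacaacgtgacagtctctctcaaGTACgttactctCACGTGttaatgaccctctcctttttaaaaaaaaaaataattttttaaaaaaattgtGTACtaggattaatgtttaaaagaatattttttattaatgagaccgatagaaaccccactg
FRO6 and FRO7 keep 85.02% identity in this window, where each holds 3 GTAC and 1 CACGTG in the same order. FRO4 and FRO5 keep 56.5%, and share a TATAAA that begins 27 and 32 bases before the start. Neither FRO4 nor FRO5 has GTAC within 250 bases, while FRO5 has 3 and FRO4 has 1 within 1000 bases, and none of the 8 genes has CAATNATTG within 1000 bases. Among 27443 protein-coding genes, 34.3% hold GTAC, 6.49% CACGTG, 32.9% TATAAA and 0.920% CAATNATTG in the 250-base window. Within 1000 bases 82.3% hold GTAC and 3.44% hold CAATNATTG, so most genes lack CAATNATTG there too. These matches describe letters only.

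Each wild-type library held 11036314 to 11974342 gene counts and each athb1-1 library 12841376 to 13153615. The merged locus that includes ATHB1, read from summed exon bins, stood at 378 to 452 CPM (counts scaled by library size) in wild-type libraries. In those labelled athb1-1 it stood at 8.00 to 8.97 CPM. The part of ATHB1 alone in these counts was not separated. Wild-type replicate 2 stood apart from its group, since chi-square over its degrees of freedom came to 10.5 and 12.6 against the other wild-type libraries and to 4.28 to 4.46 in all other pairs of one genotype. Of the 8 FRO genes, 7 passed the filter on low counts and FRO1 did not. CPM values are scaled with TMM factors, errors are SD over 3 libraries, and fold changes are log2 of athb1-1 over wild-type from edgeR with a standard error (SE). Scaling with RLE factors gave the same calls.

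In wild-type seedlings FRO3 was the most abundant family member per length and FRO1 was at the limit of detection. FRO3, the mitochondrial reductase, stood at 12.3 ± 1.88 CPM per kb of exon (SD, n = 3), 40.8% of the summed family level and higher than 73.4% of the 24482 genes ranked on this scale. FRO5 followed at 4.56 ± 1.17 CPM per kb and FRO4 at 4.36 ± 0.153 CPM per kb. The ranges of FRO5 and FRO4 overlapped, and without wild-type replicate 1 their order changed, so these neighbours did not differ beyond their spread. FRO6 stood at 3.29 ± 0.529, FRO8 at 2.69 ± 0.731 and FRO7 at 2.19 ± 0.169 CPM per kb, with overlapping ranges from each to the next. FRO2, the root surface ferric reductase, stood at 0.669 ± 0.0873 CPM per kb, below every library of FRO7. The gaps between FRO3 and FRO5 and between FRO4 and FRO6 also held in every wild-type library. In athb1-1 the order was the same except that FRO4, at 8.13 ± 0.457 CPM per kb, came before FRO5, at 6.89 ± 1.77 CPM per kb. The summed share of FRO4 was 14.5% of the family in wild-type and 22.5% in athb1-1.

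**Figure D1:**
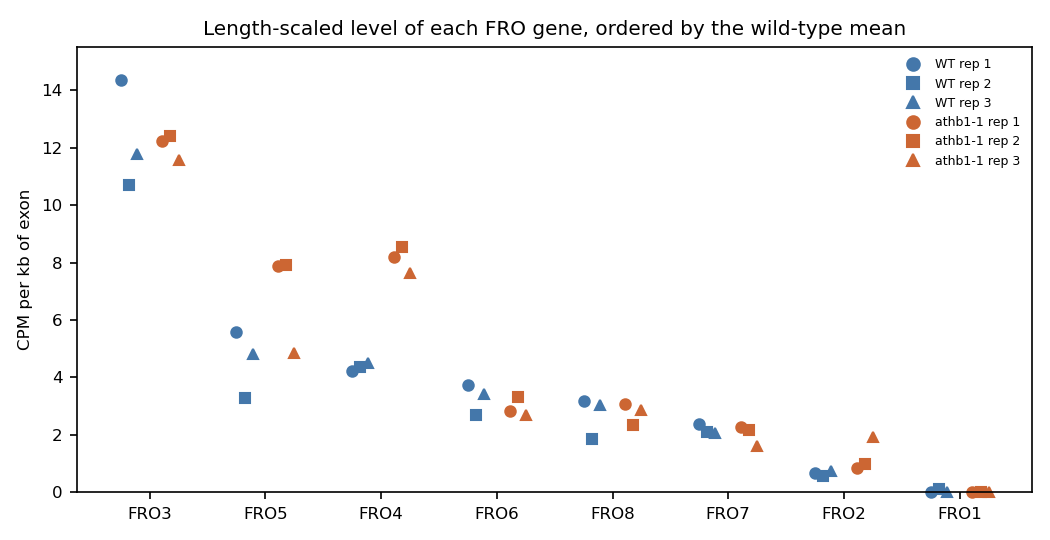
Level of each FRO gene in CPM per kb of exon, one point per library, with genes ordered by the wild-type mean (blue, wild-type; orange, athb1-1). FRO3 lies above all others in every library, FRO4 has its athb1-1 points above its wild-type points, and FRO1 lies at or near 0.

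FRO4 was higher in athb1-1 and was the single family member that passed the test over all genes, a call that ended in 3 of the 6 fits with a library left out (edgeR adjusted p 0.0756, 0.0948 and 0.0854). FRO4 stood at 9.85, 10.2 and 10.6 CPM in wild-type replicates 1, 2 and 3, and at 19.2, 19.98 and 17.9 CPM in athb1-1 replicates 1, 2 and 3. Every athb1-1 library was above every wild-type library. The means were 10.2 ± 0.357 and 19.0 ± 1.07 CPM, a 1.86-fold difference, with a log2 fold change of 0.90 (SE 0.11). The wild-type SD of 0.357 CPM was smaller than the 0.950 CPM that counting error alone would give at 106 to 129 counts per library, so it understates the error of these values.

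FRO5 stood at 13.3, 7.82 and 11.5 CPM in wild-type replicates 1, 2 and 3, and at 18.8, 18.9 and 11.5 CPM in athb1-1 replicates 1, 2 and 3. The groups overlapped, because athb1-1 replicate 3 lay within the wild-type range while the other athb1-1 libraries lay above it. The log2 fold change was 0.60 (SE 0.23), with a 95% interval of 0.09 to 1.11. It was 0.79 without athb1-1 replicate 3 and 0.40 without wild-type replicate 2, the library that stands apart and that gave the lowest FRO5 value.

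The spread of FRO5 changed how the pair's reads were divided. FRO4 took 42.6% of the pair's 249 counts in wild-type replicate 1 (95% exact Clopper-Pearson interval 36.3 to 49.0%), 56.6% in replicate 2 (49.4 to 63.6%) and 48.0% in replicate 3 (41.9 to 54.1%). In athb1-1 it took 50.5% (46.1 to 54.8%), 51.4% (46.9 to 55.9%) and 60.8% (55.7 to 65.7%) in replicates 1, 2 and 3. These intervals cover counting error only. The genotypes overlapped in this share, and the highest wild-type share came from the library that stands apart. Summed over both genes, where a misplaced read between them does not matter, the level was 23.1, 18.01 and 22.0 CPM in wild-type against 37.9, 38.9 and 29.4 CPM in athb1-1. The summed groups did not overlap, and their means differed 1.68-fold. This sum includes the FRO4 counts on which the family was selected, and no share over other gene pairs was computed.

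**Figure D2:**
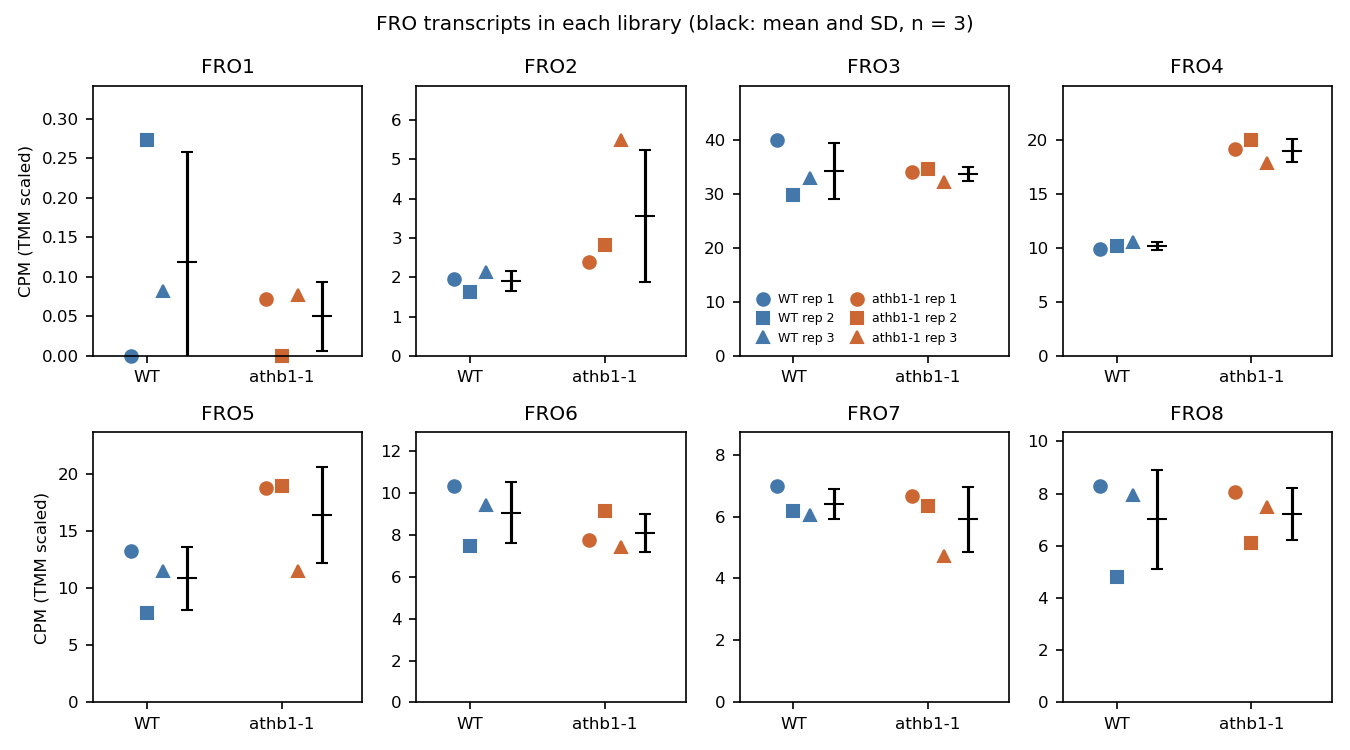
CPM of the 8 FRO genes in each library on linear axes that start at 0, with symbols for replicates and black bars for the mean and SD of 3 libraries (the wild-type bar of FRO1 is clipped at 0). The groups are apart for FRO4 and FRO2, athb1-1 replicate 3 is the low orange point of FRO5 and the high one of FRO2, and the other genes overlap.

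The exon bins of FRO4 did not differ in direction. Every one of its 8 exons had a higher mean in athb1-1, from 1.57-fold in exon 5 to 2.81-fold in exon 3. The groups did not overlap in 5 of the 8. These bins hold the reads of the gene on which the family was selected, so their shared direction is no separate support. The share of all exon bins with groups apart was not computed, here or for FRO5 below. Exon 7 held 57, 54 and 65 counts in wild-type libraries and 140, 140 and 102 counts in athb1-1 libraries, a 1.86-fold difference in mean CPM (95% counting interval 1.55 to 2.24). Exon 3, in which every stretch of 50 bases is found once in the genome, held 7, 4 and 10 counts in wild-type against 23, 18 and 27 in athb1-1. Exon 4, with the lowest share of such stretches (81.2%), differed 2.12-fold (1.29 to 3.61). Exons 1, 2 and 8 overlapped between genotypes and held 12 to 27 wild-type counts in all.

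In FRO5, 7 of 8 exons had a higher mean in athb1-1 and 2 of 8, exons 5 and 8, had groups that did not overlap. Exon 7 held 64, 40 and 71 counts in wild-type and 116, 118 and 69 counts in athb1-1, so athb1-1 replicate 3 again lay within the wild-type range. Exon 1 was 0.956-fold and exon 4 was 1.05-fold of wild-type. The athb1-1 replicate 3 library held 2 counts in exon 4 against 16 and 14 in the other athb1-1 libraries.

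Both genes had few reads in their last exon, which carries the 3′ untranslated part. Exon 8 makes up 14.2% of the exon length of FRO4 and took 6.90% of its wild-type bin counts, and it makes up 10.9% of FRO5 and took 1.49%. Exon 7 took 45.6% of the counts of FRO4 on 31.0% of its length, and 41.1% of those of FRO5 on 32.1%. Of the 50-base stretches of exon 8, 95.8% in FRO4 and 93.9% in FRO5 occur once in the genome, and its coding bases are 97.2% identical between the genes, the highest of the 8 exons. The part of shared sequence in these read shares was not tested.

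**Figure D3:**
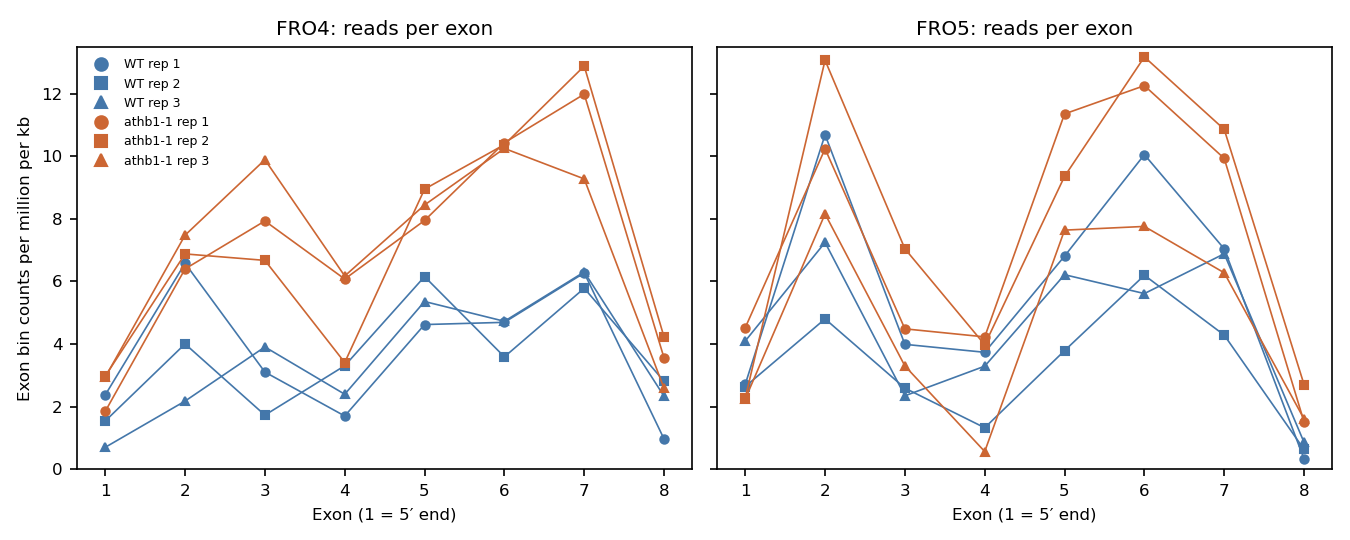
Exon bin CPM per kb of exon for FRO4 (left) and FRO5 (right), with 1 line per library and exon 1 at the 5′ end. In FRO4 the athb1-1 lines lie above the wild-type lines in exons 3 to 7, while in FRO5 the line of athb1-1 replicate 3 lies within the wild-type range in exons 2, 3, 6 and 7, below it in exons 1 and 4 and above it in exons 5 and 8.

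FRO2, the ferric reductase of iron uptake, had few reads. It held 21, 18 and 26 counts in wild-type replicates 1, 2 and 3, and 33, 36 and 71 in athb1-1 replicates 1, 2 and 3. Every athb1-1 library was above every wild-type library, at 2.39, 2.81 and 5.49 CPM against 1.95, 1.64 and 2.13 CPM. Replicate 3 of athb1-1 held about as many counts as the other athb1-1 libraries together. The log2 fold change was 0.89 (SE 0.32), with a 95% interval of 0.19 to 1.59. Without athb1-1 replicate 3 it was 0.44.

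FRO3, FRO6, FRO7 and FRO8 overlapped between genotypes. FRO3 stood at 40.0, 29.7 and 32.8 CPM in wild-type against 34.1, 34.6 and 32.2 CPM in athb1-1, with a log2 fold change of −0.02 (SE 0.11) and a 95% interval of −0.27 to 0.23. FRO8 had 7.01 ± 1.90 CPM in wild-type against 7.22 ± 1.01 CPM in athb1-1, a log2 fold change of 0.04 (SE 0.20; interval −0.39 to 0.47). In FRO2, FRO3, FRO5, FRO6 and FRO8 the lowest wild-type value was that of replicate 2.

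FRO6 and FRO7, the pair known from shoots, also overlapped between genotypes. FRO6 stood at 10.3, 7.46 and 9.42 CPM in wild-type against 7.76, 9.13 and 7.43 CPM in athb1-1 (−0.16 on the log2 scale, SE 0.16, interval −0.50 to 0.18). FRO7, the chloroplast reductase, stood at 6.97, 6.19 and 6.06 CPM in wild-type against 6.68, 6.32 and 4.72 CPM in athb1-1 (−0.11, SE 0.17, interval −0.48 to 0.25). FRO6 took 54.7 to 60.8% of the pair's counts in wild-type libraries and 53.8 to 61.1% in athb1-1 libraries. FRO1 had 0, 3 and 1 counts in wild-type and 1, 0 and 1 in athb1-1, which gives 0.430-fold (95% counting interval 0.0389 to 3.00). Its 0 counts allow up to 0.279 CPM in wild-type replicate 1 and 0.234 CPM in athb1-1 replicate 2 (3 counts).

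Across the whole table, 10 of 18626 genes passed an adjusted p of 0.05 (0.0537%, of which 0.0215% of all genes were higher in athb1-1; edgeR quasi-likelihood test, Benjamini-Hochberg), and 1 of the 7 tested FRO genes, FRO4, was among them (adjusted p 0.00677). This is the value that brought the family forward, and nothing is read from it. The smallest adjusted p of the other 6 was 0.939. Leaving out replicate 1 of either genotype or replicate 2 of athb1-1 ended the call of FRO4, while its log2 fold change stayed between 0.85 and 0.89. Groups that do not overlap were found in FRO4 and FRO2, 2 of 7, against 11.3% of all genes tested, and 5.86% of all genes had such groups with athb1-1 higher. A positive log2 fold change was found in 4 of 7, against 51.7% of all genes. An unadjusted p under 0.05 was found in FRO2, FRO4 and FRO5, 3 of 7, against 5.24% of all genes, all 3 higher in athb1-1. The median log2 fold change was 0.04 over the 7 and 0.01 over all genes tested. The authors' deposited table gives FRO4 a log2 fold change of 0.89, turned here to athb1-1 over wild-type, with an adjusted p of 6.47e-08. In the authors' deposited table the adjusted p of FRO5 is 0.621 and that of FRO2 is 0.631.

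No gene of the copper list passed the test. Of 27 listed copper genes 25 were tested by edgeR and 26 by DESeq2, and 0 passed by either. Over all genes tested 0.0537% passed by edgeR and 22 of 24709 by DESeq2. Of the 25 copper genes, 3 had an unadjusted edgeR p under 0.05, against 5.24% of all genes tested. By log2 fold change 10 were positive and 15 negative, against 51.7% positive over all genes, with a median of −0.02 against 0.01. Groups did not overlap in 4 of the 25, against 11.3% of all genes: AT1G71200 was higher in athb1-1, and PAA2, CSD2 and CSD3 were lower. The copper transporter COPT2 stood at 13.4, 14.6 and 15.2 CPM in wild-type against 20.3, 22.3 and 14.3 CPM in athb1-1 replicates 1, 2 and 3 (0.40 on the log2 scale, SE 0.15; adjusted p 0.939 by edgeR). As in FRO5, athb1-1 replicate 3 lay within the wild-type range and the other athb1-1 libraries above it. AT1G71200 had 9, 6 and 11 counts in wild-type and 18, 15 and 13 in athb1-1, with groups apart (0.60, SE 0.33). SPL7, the regulator of the copper response, stood at 26.6 ± 3.40 CPM in wild-type against 24.0 ± 1.57 CPM in athb1-1 (−0.14, SE 0.11).

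The other copper genes with an unadjusted edgeR p under 0.05 were lower in athb1-1. PAA2, a chloroplast copper pump, stood at 81.2 ± 7.27 CPM in wild-type against 67.0 ± 0.765 CPM in athb1-1 (−0.28 on the log2 scale, SE 0.09). It passed without wild-type replicate 2 (edgeR adjusted p 0.0223), a fit that called 165 genes in all, but not when the trend with transcript length was removed as well (0.1). CSD2, a copper/zinc superoxide dismutase of the chloroplast, stood at 53.3 ± 6.13 and 44.1 ± 2.88 CPM (−0.27, SE 0.11). The iron superoxide dismutase FSD1, which accumulates when copper is scarce, stood at 1535 ± 217 and 1411 ± 48.7 CPM, with overlapping groups, and was named after its values were seen.

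No gene of the iron list passed the edgeR test either. Of 43 listed genes 33 were tested by edgeR, and 0 passed. DESeq2 tested 41 of the 43, and 2 passed, IRT1 and FER1, against 22 of 24709 genes tested by DESeq2. With an unadjusted edgeR p under 0.05 there were 8, of which 6 were higher and 2 lower in athb1-1, against 976 of 18626 genes (5.24%), 541 higher and 435 lower. Groups did not overlap in 8 of the 33, 6 higher and 2 lower, against 11.3% of all genes. The median log2 fold change was 0.09, against 0.01 over all genes. IRT1, the root iron transporter that works beside FRO2, had 1, 1 and 2 counts in wild-type and 36, 85 and 139 in athb1-1 replicates 1, 2 and 3, a 55.9-fold higher level (95% counting interval 21.6 to 207). Its order among the athb1-1 libraries was that of FRO2, with replicate 3 highest and replicate 1 lowest. For FRO2, replicates 1 and 2 held 33 and 36 counts (2.39 and 2.81 CPM, with a counting SD of 0.522 CPM). The order of these 2 libraries in FRO2 is therefore not settled. IRT1 had an edgeR adjusted p of 0.164. Its adjusted p was 2.16e-04 when athb1-1 replicate 1 was left out, 0.0210 when athb1-1 replicate 3 was, and 4.41e-06 in an edgeR fit with a replicate block. IRT1 did not pass in the other edgeR fits. Its adjusted p was 0.781, 0.299 and 0.264 without wild-type replicates 1, 2 and 3, and 0.400 without athb1-1 replicate 2. With summed exon bins it was 0.0667, without a filter 0.565 and with the length trend removed 0.324.

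The metal transporter MTP3, which moves zinc into root vacuoles and responds to low iron, stood at 3.81, 3.73 and 2.62 CPM in wild-type against 5.30, 5.70 and 4.64 CPM in athb1-1 (0.63 on the log2 scale, SE 0.19). AT1G47395 had 0, 7 and 5 counts in wild-type and 12, 23 and 15 in athb1-1. OPT3, a transporter of the phloem, stood at 95.1 ± 9.40 and 111 ± 4.52 CPM (0.22, SE 0.10). MTP3, AT1G47395 and OPT3 fall outside the rule for named genes and were chosen after their values were seen.

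FER1 and FER4 are ferritins, proteins that store iron. FER1 stood at 298, 222 and 229 CPM in wild-type against 158, 142 and 177 CPM in athb1-1 (−0.65 on the log2 scale, SE 0.13; adjusted p 0.164 by edgeR). FER4 stood at 27.6, 27.6 and 27.8 CPM in wild-type against 19.6, 21.3 and 18.3 CPM in athb1-1 (−0.49, SE 0.10, edgeR adjusted p 0.215). Both had every athb1-1 library below every wild-type library. Both passed without wild-type replicate 2 (edgeR adjusted p 0.0198 and 0.0175), a fit that called 165 genes in all. With the trend with transcript length removed as well, FER4 passed (0.00576) and FER1 did not (0.0623). With any other single library left out neither passed (edgeR adjusted p 0.161 to 0.964 for FER1 and 0.336 to 0.995 for FER4). The other listed ferritins, FER2 (−0.37 on the log2 scale, SE 0.27) and FER3 (−0.18, SE 0.14), had overlapping groups.

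Of the regulators of FRO2 none passed the edgeR test, with 0 at an unadjusted p under 0.05 and 0 by DESeq2. FIT stood at 14.0 ± 0.544 CPM in wild-type against 16.4 ± 1.80 CPM in athb1-1 (0.23 on the log2 scale, SE 0.12). Its partners BHLH38 (0.17, SE 0.34), BHLH39 (−0.06, SE 0.19) and BHLH101 (0.58, SE 0.30) had overlapping groups, as had PYE (−0.09, SE 0.12) and BTS (0.03, SE 0.10), which act in the iron response upstream or beside FIT. BHLH100 had 1 count in all 6 libraries together.

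**Figure D4:**
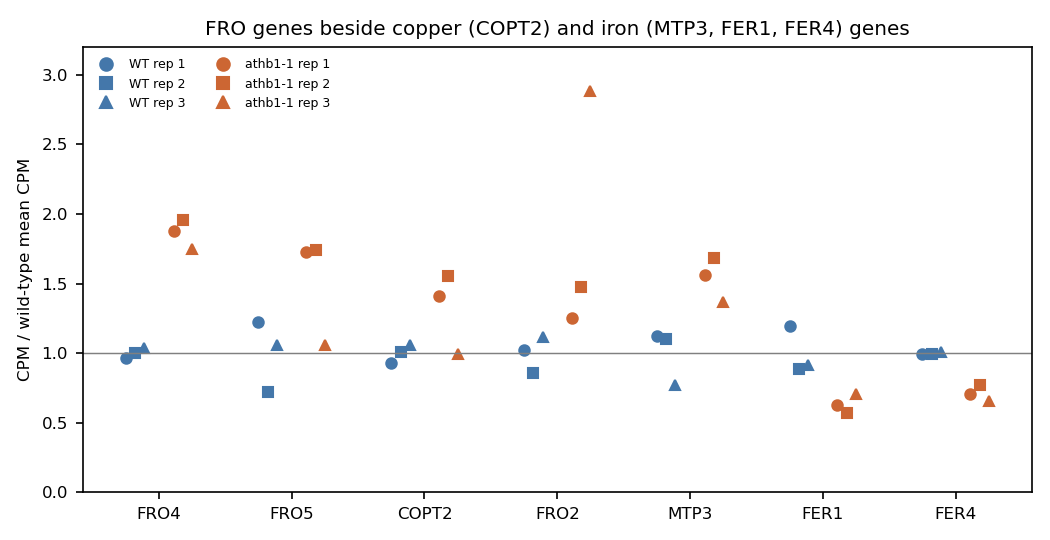
CPM of each library divided by the wild-type mean, for FRO4, FRO5 and FRO2 beside the copper transporter COPT2 and the iron genes MTP3, FER1 and FER4. COPT2, FER1 and FER4 are among the 3 genes of their lists with the smallest p, and MTP3 was chosen after its values were seen. They do not stand for their lists. Of the 25 copper genes tested 15 were negative, PAA2 and CSD2 among them, and groups were apart in 8 of the 33 iron genes tested. Replicate 3 of athb1-1 lies near 1 for FRO5 and COPT2 (1.06 and 0.994) and highest for FRO2 (2.88), while FRO4 lies between 1.75 and 1.96 in all 3 athb1-1 libraries.

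**Figure D5:**
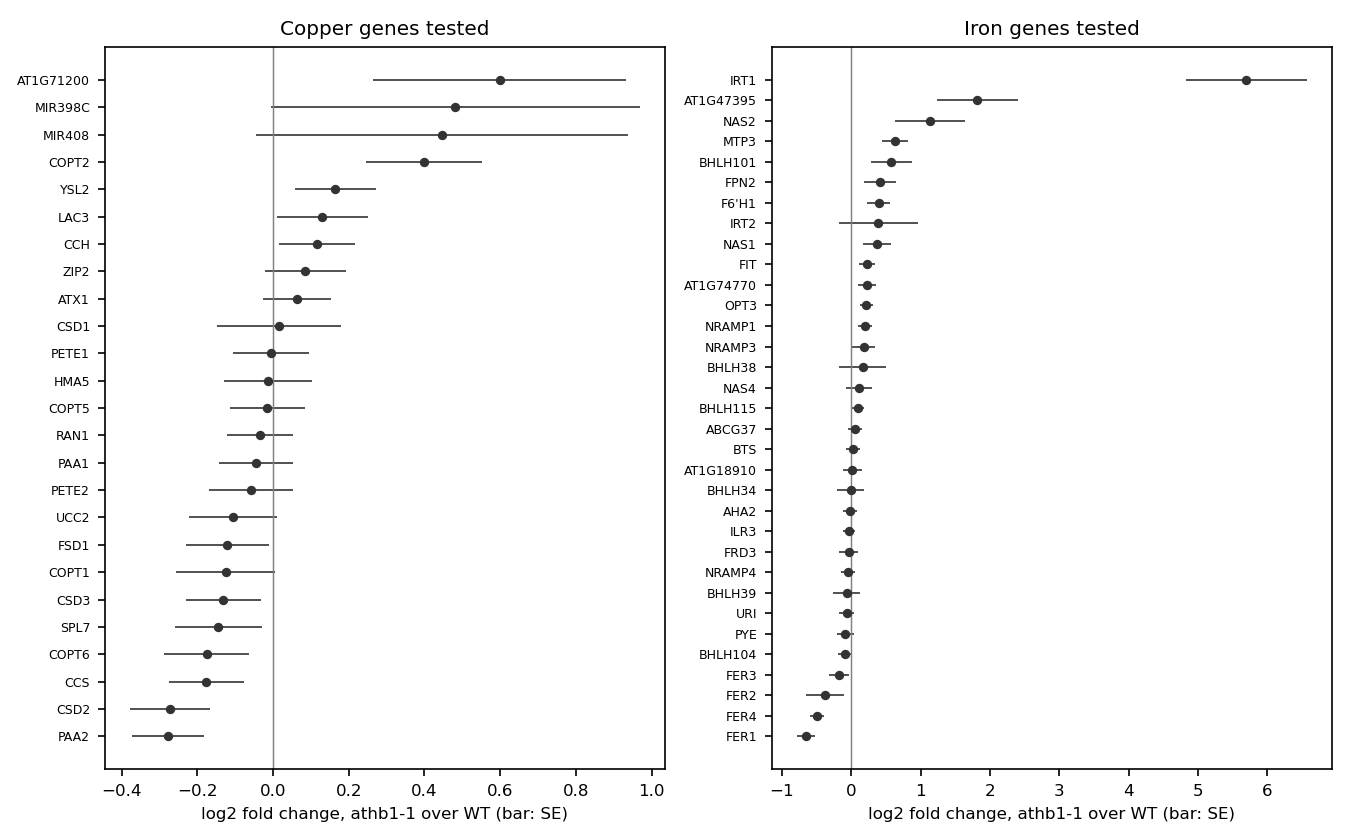
log2 fold change of athb1-1 over wild-type with SE for the 25 copper genes (left) and 33 iron genes (right) that were tested. Most lie near 0, with COPT2 at 0.40 among the higher copper genes, IRT1 at 5.70 as the highest iron gene and FER1 and FER4 at −0.65 and −0.49 as the lowest.

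The genes whose profile over the 6 libraries was most like that of FRO4 were AT1G09170, AT5G62150 and AT4G36610. Likeness was the root mean square distance of centred log2 CPM, which was 0.06, 0.11 and 0.13 for them, among 18052 genes compared with a median distance of 0.47. Their direction follows from the choice, and none passed the edgeR test (adjusted p 0.726, 0.507 and 0.164). AT4G36610, for example, stood at 7.90, 9.01 and 7.86 CPM in wild-type libraries and 13.7, 14.3 and 12.0 CPM in athb1-1 libraries. The nearest to FRO5 were SAUR63, AT1G52820 and MYB107, at 0.11, 0.14 and 0.15. With a prior count of 0.5 in place of 2, MYB107 fell to rank 9, while the others named kept their ranks. AT1G09170, SAUR63, AT1G52820 and MYB107 had low levels, at 0.819 to 2.61 CPM over the 6 libraries. FRO5 ranked 838 in distance from FRO4, and COPT2 ranked 229 from FRO5. With so many genes and 6 libraries, small distances are a description of these libraries only.

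Organ markers were measured because FRO2, FRO4 and FRO5 are known as root genes and FRO6 and FRO7 as shoot genes. All 7 root hair markers, all 6 markers of root meristem and endodermis and all 5 shoot markers were detected. The root hair markers summed to 74.7 to 115 CPM in wild-type against 81.5 to 125 CPM in athb1-1, and 1 of the 7, RSL4, had groups apart, higher in athb1-1, against 5.86% of all genes, and was named after its values were seen. The markers of meristem and endodermis summed to 124 to 146 and 122 to 144 CPM, and the shoot markers to 39273 to 51406 and 36736 to 44108 CPM, with no member apart. Replicate 3 of athb1-1, low in FRO5 and high in FRO2, had the lowest root hair sum of its group (81.5 CPM against 125 and 114 CPM). PRP3 made up much of that gap, at 35.5 CPM against 64.2 and 59.6 CPM, while EXPA7 was lowest in athb1-1 replicate 2 (7.57 CPM) and not in replicate 3 (8.43 CPM). In wild-type the library lowest in FRO5 (7.82 CPM) and FRO2 (1.64 CPM), replicate 2, had the highest root hair sum. That sum was 115 CPM, against 74.7 and 76.9 CPM in replicates 1 and 3. The part of these markers in the FRO values was not tested.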

How the data were processed

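The members and gene lists were chosen with earlier results of these data known. The authors deposited raw read counts per gene and per exon bin, and the submitters' processing notes name the build TAIR10 and the tools TopHat2 2.0.8 and Bowtie2 2.1.0. No source used here gives the counting program, the strand setting or the annotation release. The authors' deposited table holds log2 fold changes, mean log2 CPM and raw and adjusted p-values, and its headers name no tool. Its 6 per-library columns were not used. In the exon files, rows that name no gene (ambiguous, empty, low quality) came to 1.07 to 1.13%, 0.656 to 0.740% and 9.11 to 12.1% of bin counts and were left out.

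Gene counts of all 6 libraries were fitted with edgeR 4.0.16 in R 4.3.3 (TMM, default filterByExpr, robust quasi-likelihood test, genotype as the only term), with adjusted p over all 18626 genes tested. SEs were taken as the size of the fitted change over the root of its F value. CPM per kb used the summed exon length in TAIR10.1, whose nuclear chromosomes are those of TAIR10. Exon bins were matched to exons in ascending genome order, the order that followed exon lengths in 1042 of 1122 minus-strand genes checked. Coding sequences and the 250 bases before each start were aligned globally with Biopython 1.88. DESeq2 1.42.0 served as an alternative. The main fit and those with RLE factors, no filter, a replicate block, a removed length trend or DESeq2 were tested on simulated data. Fits on summed exon bins or with a library left out were not.

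Named were the 8 FRO genes, SPL7, AT1G71200, FIT, BHLH38, BHLH39, BHLH100, BHLH101, PYE, BTS and IRT1, every called gene and the 3 with the smallest p of the copper and the iron list, and the 3 genes nearest to FRO4 and to FRO5. P-values measure the spread between libraries that the design text calls biological triplicates. The 12 alternatives were RLE factors, DESeq2, no filter, a replicate block, summed exon bins, a removed transcript-length trend and each library left out. Levels were also computed with the longest transcript and nearness with a prior count of 0.5. A length trend removed without wild-type replicate 2 was chosen after seeing the data.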

Additional observations from a re-analysis of the deposited data

How the results depend on the processing

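FRO4 kept its direction in all 13 alternatives, with a log2 fold change of 0.85 to 0.94, and its call in 10 of them. The count of FRO genes called was 1 in all except the leave-one-out fits, where it was 0 to 1. FRO2 and FRO5 stayed positive and FRO6 negative in all 13, with no call. With a library left out, FRO3 ranged from −0.12 to 0.10, FRO7 from −0.21 to 0.023, FRO8 from −0.17 to 0.17, BHLH38 from −0.041 to 0.47, BHLH39 from −0.21 to 0.10 and BTS from −0.041 to 0.10, so their signs are not settled, and FRO8 was −0.13 with the length trend removed and wild-type replicate 2 left out. Genes called over the whole table numbered 22 by DESeq2, 19 without a filter, 106 with the length trend removed and wild-type replicate 2 left out, and 8 to 165 with a library left out, 165 being without wild-type replicate 2. Iron genes called numbered 2 by DESeq2, 1 without a filter (FER1), 1 with a replicate block (IRT1), 2 with the length trend removed and wild-type replicate 2 left out (FER4 and OPT3), and 0 to 2 with a library left out. Copper genes called numbered 0 to 1 with a library left out, the 1 being PAA2. The cause of these moves was not tested. The order of wild-type levels was kept except without wild-type replicate 1, where FRO4 and FRO5 changed places (2 of 8 positions; 0 to 2 with a library left out). The replicate block gave 12 genes called and kept FRO4. Same-numbered libraries deviated together in replicates 2 and 3 (correlations 0.209 and 0.108) but not in replicate 1 (−0.0548). Libraries of unlike number gave correlations of −0.211 to 0.159. Whether same-numbered libraries share more than a number was not tested. Depth limits FRO1 and FRO2 most, with at most 3 and 71 counts in a library.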
